A study of Mus musculus with 2 samples.

Results

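Long reads from the mouse gastrocnemius, a calf muscle rich in fast fibres, included many transcript models that matched the 3′ part of a longer transcript and lacked its 5′ part. In the deposited classification such a model is an incomplete splice match of the suffix kind: its introns are the last introns of a longer transcript, and it begins inside that transcript. The suffix models described here are those with 5 or more reads in a library. There were 1791 of them among 79323 models in replicate 1 and 1922 among 90517 in replicate 2, and they formed 2646 different intron chains. Of these models, 141 in replicate 1 and 110 in replicate 2 were suffixes only of unannotated longer models. The read count chose them, so their numbers and levels are a description. In replicate 1, 307 models had exactly 5 reads and were kept while 473 with 4 reads were not, and in replicate 2 these numbers were 314 and 507.

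The series has 1 group of 2 biological replicates. The tissue came from male B6CASTF1/J mice, the F1 cross of C57BL/6J and CAST/EiJ, at 25 days of age, and each library was made from 2 µg of RNA. The labels name a separate animal for each replicate but give both the same donor record, so the spread between the libraries may be partly technical. Reads in annotated genes numbered 1215785 in replicate 1 and 1549606 in replicate 2, and CPM below means reads per 1000000 of these. Skeletal muscle markers led the expression, with Acta1 (skeletal actin) at 71337 and 65981 CPM and Ckm at 68718 and 69403. The other muscle markers differed more between the libraries. Atp2a1 (151516 and 23536 CPM) and Myh4 (23867 and 9831) were lower in replicate 2. Tnnc2 (24025 and 49836) and Mylpf (19005 and 31911) were higher there. Of the heart markers Myh6 had 4 and 2 reads, Tnni3 1 and 0, and Nppa 0 in both libraries. Of the keratinocyte markers Krt5 and Krt14 were at 0 and Krt10 had 5 and 21 reads. The fibroblast collagens differed between the libraries, with Col1a1 at 2448 and 279 CPM and Col3a1 at 1387 and 237. The third fibroblast marker, Pdgfra, did not share this difference and had few reads, 5 and 7 (4.11 and 4.52 CPM). The tissue was taken whole, so fewer cells of a type and less RNA per cell cannot be told apart. The libraries stood apart in length: suffix models kept a median of 8 exons in replicate 1 and 5 in replicate 2, so values are given for each library. The ERCC spike-in RNAs, which have known ends, gave 59 and 64 models, of which 58 and 60 had a single exon; a model needs an intron to be a suffix, so they give no control for these starts.

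As background, a suffix model can arise in more than one way. A gene may carry an internal promoter, from which a shorter RNA with its own first exon is made; muscle genes such as Ank1, Myl1 and Speg are known for this. An RNA may also be broken, or its copying into cDNA from the poly(A) tail may stop before the 5′ end. At a start made by RNA polymerase II the last base before it is often a pyrimidine and the first base a purine, and some promoters hold a TATA box upstream.

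Where a model starts on the annotation was read first. The sequences shown here are starts inside a coding exon that lay on no exon boundary of the GENCODE M21 annotation in replicate 1 and had a counterpart in replicate 2. Each gives 30 bases of the longest annotated transcript before the start and 30 from it, 5′ to 3′. The capital is the first base of the model as replicate 1 has it. Positions are on mm10 and count from 1.
Acta1, minus strand, chr8:123892662-123892721: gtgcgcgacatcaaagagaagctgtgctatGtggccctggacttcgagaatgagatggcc
Apip, plus strand, chr2:103091847-103091906: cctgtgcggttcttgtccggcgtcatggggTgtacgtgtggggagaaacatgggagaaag
Mb, minus strand, chr15:77017637-77017696: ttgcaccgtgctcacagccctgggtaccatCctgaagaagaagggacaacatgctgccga
Pde4dip, minus strand, chr3:97709551-97709610: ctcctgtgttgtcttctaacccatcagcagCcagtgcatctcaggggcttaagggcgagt

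The Acta1 model had 265 reads in replicate 1 and 522 in replicate 2, where it began 44 nt away on an exon edge. In Apip, an enzyme of methionine salvage, the same base began the model in both libraries, with 11 and 76 reads. The same base also recurred in Mb, which encodes myoglobin, with 17 and 42 reads, and in Pde4dip, which encodes the scaffold myomegalin, with 17 and 6 reads. Of these 4 starts, that of Acta1 alone had a pyrimidine followed by a purine.

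Another pair of starts lay at a promoter of the RefSeq annotation (GRCm38.p6, the assembly that mm10 names). They are shown with 120 bases before and 20 from the RefSeq start, because they belonged to the models with most reads among the starts outside the M21 boundaries. The capital is again the first base of the model.
Myh4, plus strand, chr11:67237692-67237831: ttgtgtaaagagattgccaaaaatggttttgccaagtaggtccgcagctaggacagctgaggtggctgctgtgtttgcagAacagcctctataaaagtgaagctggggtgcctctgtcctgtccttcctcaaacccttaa
Pfkm, plus strand, chr15:98111940-98112079: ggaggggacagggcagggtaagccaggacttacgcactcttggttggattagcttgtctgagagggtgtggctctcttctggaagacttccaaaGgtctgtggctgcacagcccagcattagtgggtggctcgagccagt

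The Pfkm model, of the muscle phosphofructokinase that commits sugar to glycolysis, started 26 nt before the RefSeq start at the same base in both libraries. Its reads numbered 2020 in replicate 1 and 762 in replicate 2. It kept 22 exons, lacked 1 of the 23 exons of the longest annotated transcript, and retained the whole coding sequence. The Myh4 model, of the fast IIb myosin heavy chain, started 40 nt before the RefSeq start and had 10744 reads in replicate 1, the most of any suffix model there. It kept 40 exons and lacked none of the 39 exons of the longest annotated Myh4 transcript, so it goes against the description as a model without 5′ exons; it was a suffix only of an unannotated longer model. The same chain was in replicate 2 with 683 reads but carried the class of chains with an unannotated splice site. Its start lay 9 nt before the TATAAA in the printed stretch, and that TATAAA lay 31 nt before the RefSeq start. TATAAA on the sense strand is in 8.32% of all 32851 RefSeq promoter stretches and on either strand in 13.6%, and the Pfkm stretch printed here holds none on the sense strand.

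Most suffix models began at a coordinate that the annotation already has. In replicate 1, 64.5% (95% interval 62.2 to 66.7) began exactly at the 5′ edge of an annotated internal exon of the gene, and in replicate 2 63.9% (61.8 to 66.1) did. A further 21.5% and 24.5% began exactly at an annotated transcript start of the gene, and 5.97% and 5.88% at another annotated exon boundary. That other boundary could belong to any gene of the chromosome. A start that was both an annotated start and an internal exon edge was counted as an annotated start only. Only 8.04% (144 models) in replicate 1 and 5.57% (107 models) in replicate 2 began on no annotated boundary. The sources used here do not say how a start coordinate was given to a model. A start on an exon edge or an annotated start therefore cannot be told apart from a start placed there by the processing. These classes were made after the coordinates were seen.

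**Figure D1:**
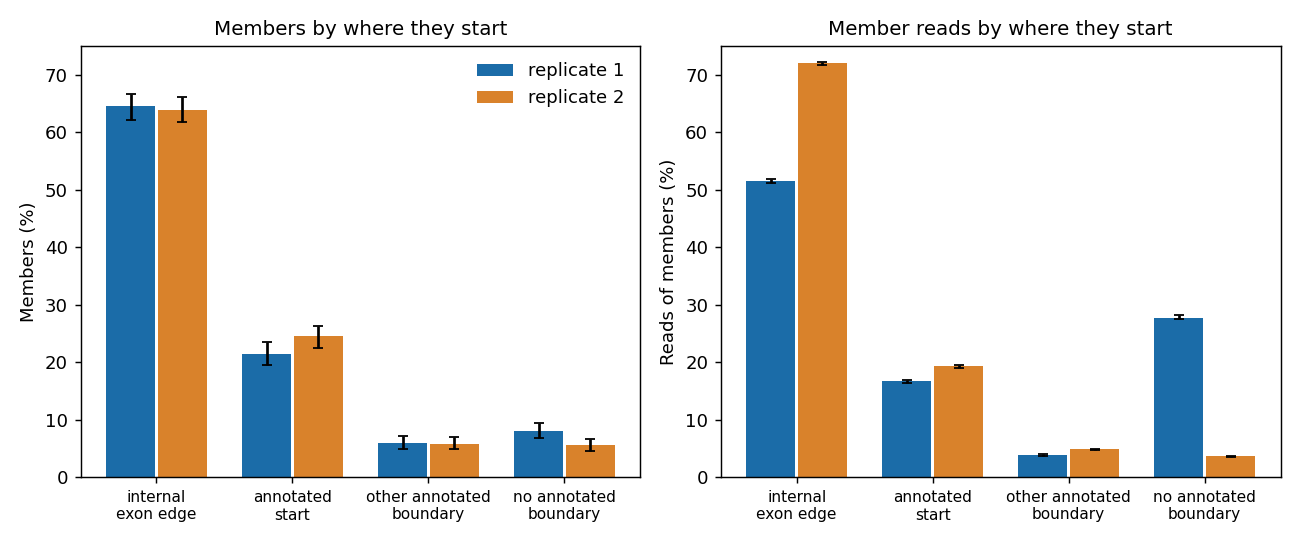
Percent of suffix models (left) and of their reads (right) by where the model starts on the annotation, for each library, with exact 95% Clopper-Pearson intervals as error bars. Exon edges hold 64.5% and 63.9% of models, and the right-hand class holds 27.8% of reads in replicate 1, or 15.4% without the 40-exon Myh4 model.

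By reads the classes differed more between the libraries. Models starting on no boundary held 27.8% of the member reads in replicate 1 and 3.67% in replicate 2. Without the 40-exon Myh4 model the value of replicate 1 was 15.4% (15.1 to 15.7). Exon-edge models held 51.5% and 72.0% of the reads, and 60.4% in replicate 1 without that model.

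On the longest annotated transcript of each gene, the reference used throughout, 70.7% of starts in replicate 1 and 64.9% in replicate 2 fell in a coding exon. Introns held 9.72% and 10.7%, 5′ untranslated exons 8.49% and 6.51%, and exons of noncoding references 5.58% and 10.8%. The rest lay upstream or downstream of the reference or in its 3′ untranslated part. Starts thus fell mostly inside coding sequence, and models that kept the whole coding sequence were 13.7% (12.0 to 15.4) and 11.3% (9.75 to 12.9) of those with a coding reference. By reads, models with the whole coding sequence held 28.8% in replicate 1, 15.5% without the 40-exon Myh4 model, and 5.35% in replicate 2.

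The suffix models lacked a median of 5 exons in replicate 1 (quartiles 1 to 14) and 4 in replicate 2 (1 to 10). The exonic length lost had a median of 918 nt (350 to 2154) and 812 nt (326 to 1915), or 29.3% and 37.8% of the reference. In replicate 2, 3 models lie in no annotated gene and have no reference. In replicate 1, 342 models lacked a single exon and 604 lacked 10 or more, and in replicate 2 366 and 488 did. No exon was missing from 129 models (7.20%) in replicate 1 and 152 (7.92%) in replicate 2, because the reference is the longest transcript of the gene and need not be the parent of the model. The values depended on the reference: against the annotated parent with the least loss, the medians were 4 and 3 exons and 670 and 526 nt.

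What was kept differed more between the libraries than what was lost. Members kept a median of 8 exons and 2086 nt in replicate 1, against 5 exons and 1089 nt in replicate 2. Their references differed too, with medians of 14 exons and 3611 nt in replicate 1 and 10 exons and 2674 nt in replicate 2. How much of the difference in what was kept came with the references was not tested. Models with only 2 or 3 exons were 376 of 1791 members in replicate 1 and 36.8% (34.6 to 39.0), 706 of 1919 with a reference, in replicate 2. They held 19.6% of member reads in replicate 1, 23.0% without the 40-exon Myh4 model, and 52.8% in replicate 2. Models of 16 or more exons held 28.7% of member reads in replicate 1 without the Myh4 model and 2.68% in replicate 2. The intervals cover counting error only, and with 1 group the difference is one between 2 libraries.

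Most of the largest losses among recurring models were in the giant proteins of the sarcomere and of the triad, where muscle excitation meets calcium release. A Ttn model (titin, the molecular spring) kept 4 exons and lacked 343 of 347, which is 104325 nt, with 26 reads in replicate 1 and 37 in replicate 2. A Ryr1 model (the calcium release channel) kept 3 exons and lacked 103 of 106, with 13 and 54 reads. A Neb model (nebulin, the thin filament ruler) lacked 154 of 157 exons, with 6 and 26 reads. The Col1a2 model (a type I collagen chain) lacked 50 of 52 exons, with 9 reads in each library. A Cmya5 model (myospryn) lacked 10299 nt, with 5 and 8 reads. Each of these 5 models began at the same base in both libraries, and that base was an annotated exon edge.

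Recurrence was counted for each suffix model as a suffix model of the same gene that began within 50 nt in the other library, where it needed only 1 read. It was 80.0% (78.0 to 81.8) for replicate 1 and 82.7% (81.0 to 84.4) for replicate 2, and 74.1% and 75.4% at the very same base. As background, 16.2% and 15.4% of the exonic positions of the reference lay within 50 nt of a suffix start of the other library. Suffix models with fewer than 5 reads recurred in 35.5% and 39.6% of cases. The 3′ ends of the opposite class, prefix models, recurred in 67.5% of 114 and 77.5% of 89 models. Among the reference exon edges of genes with exon-edge members, 51.7% and 46.5% were hit at the very same base by the other library. This is the background for same-base recurrence in that class.

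Recurrence was not alike across the start classes. Within 50 nt, exon-edge starts recurred in 85.2% and 85.8%, annotated starts in 82.1% and 85.3%, and other boundaries in 57.9% and 65.5%. Exon-edge starts recurred at the very same base in 82.3% and 80.4%. Starts on no boundary recurred in 48.6% (40.2 to 57.1; 70 of 144) and 56.1% (46.1 to 65.7; 60 of 107), against 17.5% and 16.7% of the exonic positions of their own references. At the very same base they recurred in 11.8% (17 models) and 20.6% (22 models). For the annotated classes 2 libraries that share an annotation can meet at one base by coordinate alone, and its part in the recurrence was not tested.

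**Figure D2:**
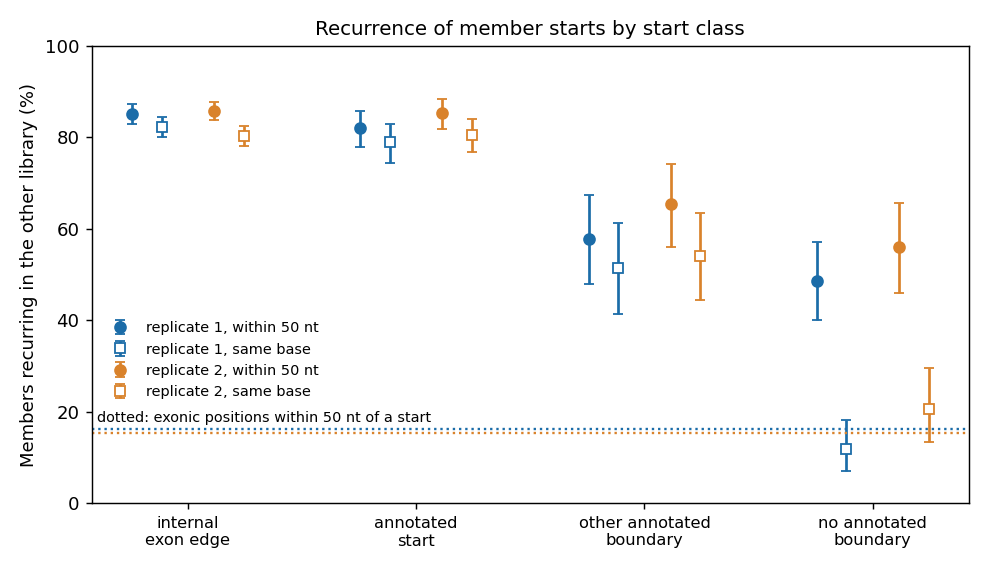
Percent of suffix models whose start recurs in the other library, by start class and library, within 50 nt (filled circles) or at the same base (open squares), with exact 95% intervals. Dotted lines are the 16.2% and 15.4% of exonic positions that lie within 50 nt of a suffix start of the other library; starts on no boundary recur in 48.6% and 56.1% within 50 nt and in 11.8% and 20.6% at the same base.

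The starts on no boundary lay at widely varying distances from one. In replicate 1, 34.0% of them were within 10 nt of an annotated boundary of the gene and 53.5% within 50 nt, and in replicate 2 40.2% and 63.6% were. The distance had a median of 36 nt and a maximum of 46774 nt in replicate 1. In replicate 2 the median was 24 nt and the maximum 2713 nt. The share of all exonic positions this near a boundary was not computed. Of the 52 such models in replicate 1 with a counterpart of 5 or more reads in replicate 2, 34 counterparts lay on an exon edge and 18 again on no boundary. The Myl1 model, of the fast myosin essential light chain, shows the first kind: it began at position 66926282 of chromosome 1 in replicate 1 with 52 reads, and 3 nt away at the exon edge in replicate 2 with 248.

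The 18 pairs that were off the annotation in both libraries came from 17 genes, and 14 began at one base; 13 fell in a coding exon and 5 in an intron of the reference. They are named here after their values were seen. After Pfkm, the one with most reads was in Pygm, the muscle glycogen phosphorylase, which began at 6385118 on chromosome 19 (plus strand) in both libraries with 159 and 55 reads, kept 19 of 20 exons and began in an intron. An Atp2a1 model (the calcium pump SERCA1) began at 126457196 on chromosome 7 (minus strand) with 121 and 29 reads and lacked 6 exons. Tpm1 (tropomyosin) had one at 67033991 on chromosome 9 (minus strand) with 41 and 97 reads, and Casq1 (the calcium store protein calsequestrin) one at 172213388 on chromosome 1 with 20 and 56. These pairs, the Pfkm one apart, were not within 50 nt of a RefSeq start.

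The bases at the starts were read from the reference transcript for starts in its exons at least 40 nt from its 5′ end. Among 163 different starts on no boundary, 9.20% (5.24 to 14.7) had C or T before A or G, while 21.6% of all positions of the same transcripts did. The share was 8.70% against 21.9% at 1598 exon-edge starts, 25.9% (19.4 to 33.4) against 21.9% at 162 starts on another annotated boundary, and 28.9% (23.5 to 34.8) against 22.0% at 263 annotated starts. GGG before the start was found at 8 of the 163 (4.91%, 2.14 to 9.44), against 1.86% of positions. It was at 2 of the 89 recurring starts (2.25%, 0.273 to 7.88) and at 6 of the 74 others (8.11%, 3.03 to 16.8). TATAAA on the sense strand upstream of the start was found at 0 of the 163 (exact interval up to 2.24%); it occurs at 0.157% of positions, so a lower share could not have been seen at this number of starts. The upstream bases are those of the spliced transcript, not of the genome. At an edge of a reference exon the base before the start is therefore the last base of the preceding exon. Nothing is read from the exon-edge share for this reason.

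Starts near an annotated transcript start other than that of the reference made up 20.9% (19.1 to 22.9) and 23.6% (21.7 to 25.5). Of exonic positions, 4.33% and 5.72% lie that near. The processing may have placed model starts on annotated starts, which exonic positions do not allow for, so nothing is read from the difference. When only annotated transcripts with reads in the library were counted, the shares of model starts were 4.19% and 4.90%. Within 50 nt of a RefSeq gene start lay 3.35% and 3.43% of members, and 14.3% and 13.2% of those on an annotated M21 start.

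Of the members that did not recur, 359 in replicate 1 and 332 in replicate 2, 174 (48.5%) and 178 (53.6%) shared their intron chain with a suffix model of the other library. The starts of these pairs were a median of 358 nt and 226 nt apart, and the chains of 159 and 140 members were absent from the other library. Non-recurring members held 26.5% and 17.3% of member reads. Atp5b, the catalytic ATP synthase subunit, had the second most reads among them: its model of 2 exons began at 128088957 on chromosome 10 in replicate 2 with 8599 reads, and the same chain had 1426 reads in replicate 1 from another start. In Ckm, the muscle creatine kinase, the 2-exon chain had 5092 reads in replicate 2 and 2313 in replicate 1. Tnni2 (fast troponin I) had 1236 reads and its chain 552 in replicate 1, and the 9-exon Atp2a1 model had 376 and 307. The Aldoa chain (aldolase A) had 780 reads in replicate 2 and, in replicate 1, 248 reads in the class of models that match as suffix and prefix. So for these 5 models and for Myh4 the chain itself was found in both libraries.

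There were 979 pairs of members with 5 or more reads in both libraries and starts within 50 nt, in 443 genes. Of these, 934 shared the intron chain and 897 the start base. By class, 643 began at an exon edge, 243 at an annotated start, 41 at another boundary and 52 on none. Pearson's r of log10 CPM between the libraries was 0.694 and Spearman's rho 0.581 across the pairs, as a description, since the pairs share genes and were chosen by reads in both. The log2 ratio of CPM, replicate 2 over replicate 1, had a median of 0.135 (quartiles -0.835 to 0.972), and 539 pairs were within 2-fold.

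That ratio was lower for models that kept more exons. Of 258 pairs with 2 or 3 exons, 215 had more CPM in replicate 2 and the median log2 ratio was 1.09. With 4 to 7 exons it was 0.375 over 334 pairs, and with 8 to 15 exons it was -0.467 over 272. Of 115 pairs with 16 or more exons only 9 had more CPM in replicate 2, and the median was -1.81. The libraries thus ranked short and long suffix models differently, and the part of length in the ratios of single genes was not tested.

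**Figure D3:**
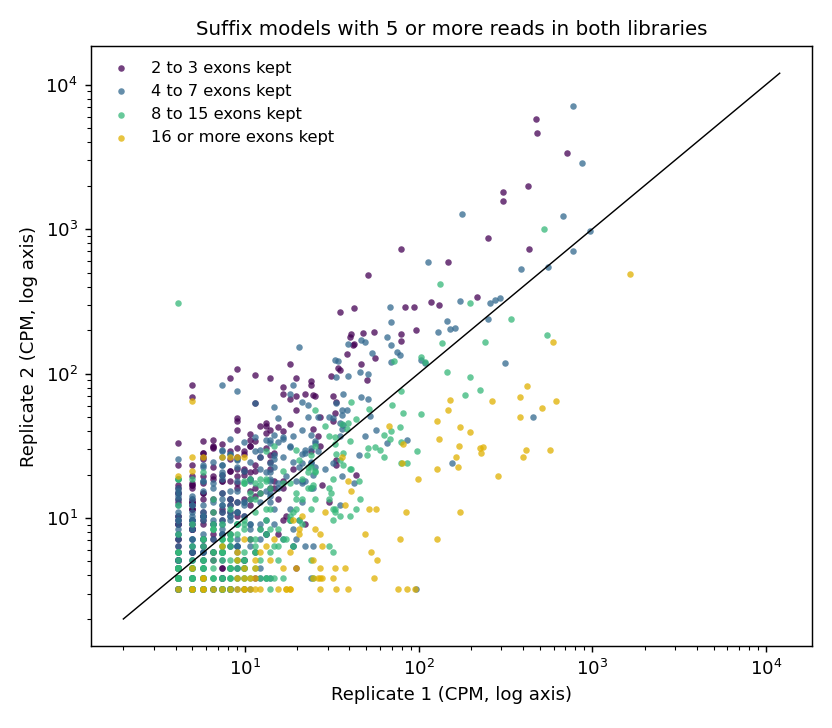
CPM in replicate 1 (x, log axis) and replicate 2 (y, log axis) of the 979 suffix models with 5 or more reads in both libraries, 1 point a model, coloured by exons kept; the line marks equal values. Models with 2 to 3 exons lie mostly above the line (215 of 258) and models with 16 or more mostly below it (9 of 115 above).

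The recurring model with most reads was in Hrc, the histidine-rich calcium-binding protein of the sarcoplasmic reticulum. It began at 45337887 on chromosome 7 (plus strand), at an edge of a coding exon, kept 4 of 6 exons and only 255 nt, and was read 948 times in replicate 1 and 10978 times in replicate 2 (780 and 7084 CPM). Suffix models took 91.5% of all Hrc reads in replicate 1 and 97.2% in replicate 2, so few Hrc reads belonged to any other class. A Myh4 model of the last 3 exons began at 67259083 on chromosome 11 and had 580 and 8931 reads. Tnnt1, the slow skeletal troponin T, had a 3-exon model from 4508025 on chromosome 7 (minus strand) with 585 and 7196 reads; it began at an annotated start that lies in an intron of the reference, and lacked 11 of 14 exons. In Tnnt1, too, suffix models made up most reads of the gene, 87.8% and 96.8%.

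Small mitochondrial genes followed with short models. Ndufa4 (a subunit of the respiratory chain) had 870 and 5237 reads in a 2-exon model, and Ndufs7 (complex I) 373 and 2815. Both began at an exon edge. Myl1 had a 4-exon model from 66926622 on chromosome 1 with 1060 and 4460 reads. Trdn (triadin, which anchors calsequestrin at the release channel) had a 5-exon model with 215 and 1983 reads whose starts were 10 nt apart. This Trdn model was not a suffix of any annotated transcript.

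The next 3 models had values closer together per 1000000 reads. Acta1 had a 5-exon model from 123893470 on chromosome 8 with 1178 and 1507 reads, which is 969 and 973 CPM. Actn2, the Z-disc actinin, had a 10-exon model with 638 and 1554 reads. An Atp5f1 model (ATP synthase subunit b) with 830 and 1904 reads lacked no exon, since the longest annotated transcript of that gene is a noncoding one of 3 exons. The model kept 7 exons and began at an annotated start, 17 nt from a RefSeq start. Suffix models took 97.1% and 95.9% of all Atp5f1 reads. Farther apart were 3 members at an annotated start: Tpm1 had 139 and 913 reads, Eno3 (muscle enolase) 162 and 648, and Fxyd1 (phospholemman) 62 and 746.

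Within single genes the reads were spread over the exons in different ways. In Myh4 suffix models kept from 2 to 40 exons, with 53 members in replicate 1 and 39 in replicate 2. In replicate 2, 70.6% (69.8 to 71.4) of its suffix reads kept 2 or 3 exons, against 3.11% in replicate 1, or 6.42% (5.95 to 6.92) without the 40-exon model. Acta1 showed no such contrast: 23.8% and 34.3% of its suffix reads kept 2 or 3 exons, and in both libraries the middle read kept 5. In Ckm the middle read kept 2 exons in both libraries, with 62.9% and 75.7% on models of 2 or 3 exons.

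**Figure D4:**
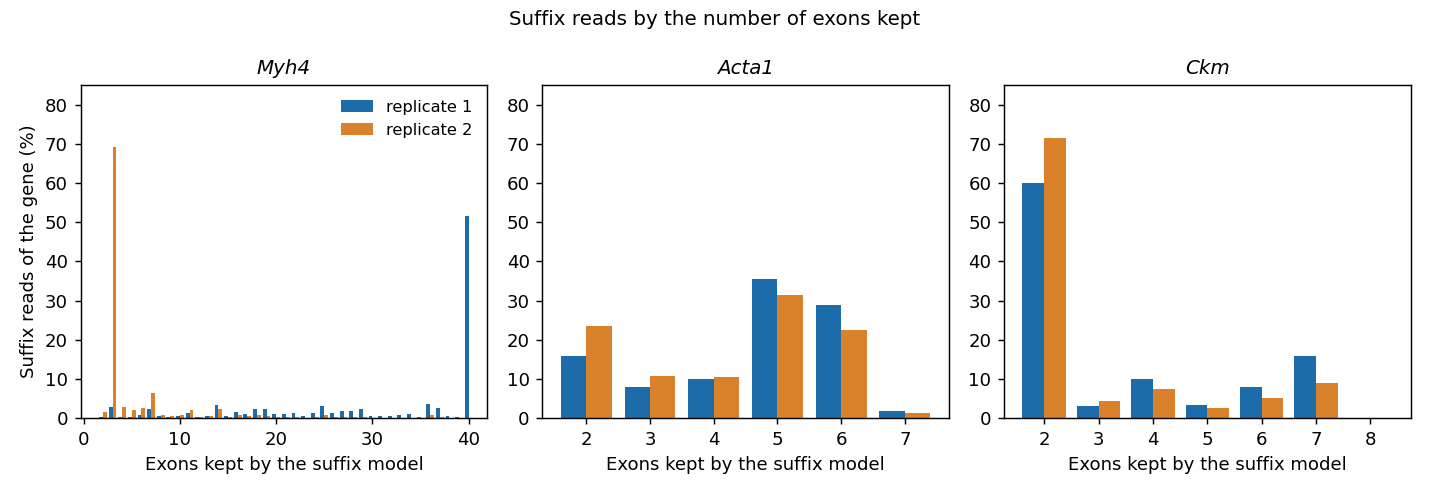
Percent of the suffix reads of Myh4, Acta1 and Ckm (y) by the number of exons the suffix model keeps (x), for each library. In Myh4 the reads stand at 3 exons in replicate 2 and at 40 in replicate 1, while Acta1 and Ckm have alike shapes in both libraries.

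By members over both libraries, Myh4 led with 53 and 39. After it came Myh1 (38 and 26), Col1a1 (41 and 14), Myh2 (33 and 20), Mybpc2 (26 and 24), Pde4dip (37 and 13) and Col1a2 (37 and 10), chosen here after their counts were seen. The different starts were almost as many as the exons in some genes. Myh1, with 40 exons in its reference, had 38 and 26 different starts, of which 33 and 25 recurred. In Mybpc2, which encodes the fast myosin-binding protein C, the numbers were 26 and 24 for a reference of 28 exons, with 26 and 23 recurring. Over all genes, 488 of 723 in replicate 1 and 655 of 961 in replicate 2 had a single member, and 524 genes had members in both libraries.

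Suffix models of any read number were then set against all reads of each gene. The members alone held 6.01% (5.97 to 6.05) of gene reads in replicate 1 and 8.58% (8.54 to 8.63) in replicate 2, or 7.30% ± 1.82 (SD, n = 2); without the 40-exon Myh4 model replicate 1 had 5.12%. Counting only suffixes of annotated transcripts gave 4.93% and 8.27%. Among 3829 genes with 20 or more reads in each library, the suffix share differed between the libraries in 229, or 5.98% of those tested, by a two-sided Fisher exact test with Benjamini-Hochberg adjustment. It was higher in replicate 2 in 167 (4.36%) and lower in 62 (1.62%). When unspliced and partly spliced genomic reads were left out of the gene totals, 196 were higher and 24 lower, and when only suffix models of 4 or more exons were counted, 76 were higher and 56 lower. The test compares these 2 libraries and not conditions. Member genes made up 207 of the 229; they had to have suffix reads, so nothing is read from that number.

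The widest called differences were in genes with few reads. The share was lower in replicate 2 in Rnf115, a ubiquitin ligase, with 35 of 64 reads in replicate 1 and 1 of 92 in replicate 2 (adjusted p = 4.32e-14, Fisher exact test). It was also lower in Pitpnc1 (24 of 37 and 2 of 49 reads), Zfp423 (16 of 22 and 4 of 21), Huwe1 (12 of 22 and 1 of 23) and Gm20427 (31 of 36 and 0 of 28, exact interval up to 12.3%). The share was higher in replicate 2 in H2-Ke6, with 2 of 32 and 142 of 207 reads (adjusted p = 6.27e-10, Fisher exact test). Higher shares were also called in the splicing factors Sfpq (1 of 22 and 18 of 29) and Sf3b2 (14 of 154 and 52 of 92), in Mum1 (2 of 23 and 27 of 41) and in Thbs4, a matrix thrombospondin (30 of 84 and 95 of 114). Gm20427 is an unnamed gene model whose reads may be shared with an overlapping gene, so its value is uncertain. Whether each gene named here is still called without genomic reads in its total is not given.

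In the gene lists, giant and membrane-associated proteins had the highest median suffix share in replicate 1, 43.4%, against 20.1% in replicate 2 and 2.78% and 3.14% over all genes tested. Of 14 tested genes, 10 were lower in replicate 2 and 1 higher. Over all genes tested, 4.36% were called higher in replicate 2 and 1.62% lower, which is the background for this and the later lists. A call depends on the reads of a gene, and the lists were not matched to other genes for read number. It also depends on the gene total: without genomic reads, 24 of 3407 genes were lower in replicate 2, against 62 of 3829 with them. The lists were not recounted without genomic reads. Ryr1 had 908 of 962 reads in suffix models in replicate 1 (94.4%, 92.7 to 95.8) and 643 of 721 in replicate 2 (89.2%, 86.7 to 91.4), and was called lower. Ttn had 43.4% and 26.4% and was also called lower, while Neb (92 of 209 reads and 93 of 186) and Nrap, a nebulin-related anchoring protein (48.2% and 49.4%), were not called. Trdn was the one called higher, with 22.4% and 62.6%.

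Sarcomeric myosin heavy chains, the motors of the thick filament, differed in the other direction. All 4 tested genes had a higher share in replicate 2, and the medians were 37.8% and 64.6%. Myh4 had 71.8% and 85.2% of its reads in suffix models, and 34.8% in replicate 1 once the 40-exon model was not counted among them. Myh1 (IIx) had 29.0% and 61.1%, Myh2 (IIa) 46.5% and 68.1%, and Myh7 (the slow chain) 14.7% (12.8 to 16.8) and 58.9% (54.0 to 63.6).

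**Figure D5:**
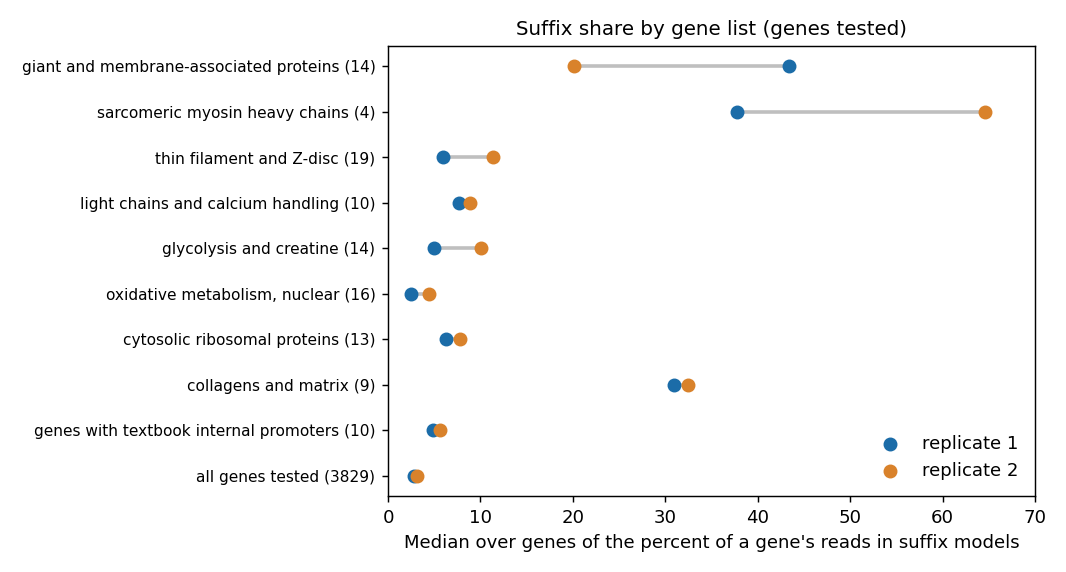
Median over the tested genes of each list of the percent of a gene's reads in suffix models, for each library, with the number of genes tested in brackets. Giant proteins stand at 43.4% and 20.1%, myosin heavy chains at 37.8% and 64.6%, collagens at 30.9% and 32.5%, and all genes at 2.78% and 3.14%.

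Thin filament and Z-disc genes had medians of 5.98% and 11.4%. Of these, 13 of 19 were higher in replicate 2 and 1 lower, against 4.36% and 1.62% of all genes tested. Acta1 had 3.84% and 4.71%, Tnni2 14.4% and 21.4%, and Tnnt3 (fast troponin T) 22.7% and 33.3%, all called higher. Light chains and calcium handling genes had 7.65% and 8.89%, with 7 of 10 higher in replicate 2. Atp2a1 had 2.30% of 184211 reads and 8.17% of 36472. Myl1 had 9.17% and 13.5%, Pvalb (the calcium buffer parvalbumin) 6.87% and 8.85%, and Mylpf (the fast regulatory light chain) 2.24% and 2.63%.

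Glycolytic and creatine genes had medians of 4.99% and 10.1%, and 8 of 14 were higher in replicate 2 and 1 lower. Ckm had 4.62% and 6.64%, Aldoa 4.47% and 10.5%, and Eno3 491 of 9813 reads and 9.40%. Pfkm stood apart from its list with 78.2% and 75.9% (adjusted p = 0.644, Fisher exact test), most of it in the model shown above. Nuclear genes of oxidative metabolism had 2.53% and 4.42%, and 6 of 16 were higher in replicate 2. Atp5b had 33.0% (31.7 to 34.3) and 74.9% (74.1 to 75.6), Ogdh (oxoglutarate dehydrogenase) 22.0% and 39.3%, and Atp5a1 5.45% and 9.70%.

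Ribosomal proteins and Eef1a2 had medians of 6.25% and 7.74%, with 1 of 13 higher. Rpl3l, the muscle form of Rpl3, had 29.9% and 32.3%, Eef1a2 19.8% and 22.5%, Rplp0 6.46% and 7.74%, and Rpl4 7.53% and 8.05%; none of these 4 was called. Collagens and matrix genes had 30.9% and 32.5%, with 4 of 9 higher and 1 lower. The type I collagen chains differed in opposite directions: Col1a1 had 532 of 2976 reads and 144 of 433 (17.9% and 33.3%), and Col1a2 465 of 546 and 143 of 301 (85.2% and 47.5%). Col3a1 had 8.84% and 21.5% and Sparc 18.3% and 21.4%.

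Genes known from textbooks for internal promoters had medians of 4.84% and 5.67%, with 3 of 10 higher and 2 lower, and 7 and 8 of the 12 had a member. In Ank1, whose internal promoter makes the small muscle ankyrin, the members had 11 and 20 reads from 23141596 on chromosome 8 and lacked 43 exons. A further Ank1 model had 7 reads in replicate 1 from 23141081 and 10 in replicate 2 from 23140825. In Myl1, whose internal promoter makes the short light chain, a model from the annotated start at 66935350 on chromosome 1 had 356 and 513 reads and lacked 1 exon. Speg had 3 members in replicate 1, of 9, 7 and 5 reads, and 1 in replicate 2, of 5. Aldoa had 2 chains from the annotated start at 126797751 on chromosome 7, with 313 and 165 reads in replicate 1 and 476 and 254 in replicate 2. A Ttn model of 6 exons had 122 reads in replicate 1 and began on no boundary, and another of 6 exons in replicate 2 had 23 reads; neither start recurred. Dmd, Mylk and Ppargc1a had no member in either library.

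The suffix share varied with transcript length. Across genes with 20 or more reads, Spearman's rho of the share with the length of the reference was 0.363 in replicate 1 (4692 genes) and 0.237 in replicate 2 (4618 genes), and Pearson's r with log10 length 0.271 and 0.183. Genes share the library and its depth, so this is a description. Pooled over genes, references of at most 1000 nt had 2.86% and 4.06% of reads in suffix models, and those of 1000 to 2000 nt 5.26% and 10.7%. References of 4000 to 8000 nt, which include Myh4, had 23.5% and 21.6%, and those over 8000 nt 29.5% and 16.3%. With the 40-exon Myh4 model not counted as suffix, an alternative chosen after seeing the data, the 4000 to 8000 nt value of replicate 1 was 16.4%. Replicate 2 thus had the higher pooled share below 4000 nt and the lower one above 8000 nt. Between these lengths the direction of the pooled share turned with that 1 model. The median share over genes of 4000 to 8000 nt was 6.45% in replicate 1 and 4.17% in replicate 2. These shares by length were not recomputed without genomic reads in the gene totals.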

How the data were processed

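For each of the 2 libraries the authors deposited a table of read counts per transcript model and an annotation of the model coordinates. Per the file headers, models were made by TALON from mm10 alignments with GENCODE M21, each library separately. The sources used here do not give the aligner, the versions, read filters or how model starts were set. Depth was 1292409 and 1703457 reads in all, and exact 95% Clopper-Pearson intervals cover counting error only.

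Suffix models with 5 or more reads were kept. The reference was the longest annotated transcript of the gene; an exon was missing when it lay wholly upstream of the model start. Chains were matched by chromosome, strand and introns. Promoters came from RefSeq (GRCm38.p6) by position. Python 3.11.15, pandas 2.3.3 and scipy 1.17.1 were used. The share of suffix reads per gene was compared between libraries by Fisher's exact test, adjusted by Benjamini-Hochberg, at a threshold of 0.05. The methods were tested on simulated data.

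Members, gene lists and tests were chosen with earlier results of these data known. Models named were the 12 recurring ones with most reads, 1 per gene, the 6 with most reads that did not recur, the 5 with most exons missing and the 5 with most length lost, the 6 with most reads near an annotated start and the 6 not near one, the 5 genes of each direction with the largest called difference, and up to 4 genes a list; names added later are marked. Some genes that meet these rules are not reported here. Genes on chromosome 18 (29 and 37 members) are counted and not named. Alternatives were other read minimums, windows, references and denominators, and leaving out each library.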

Additional observations from a re-analysis of the deposited data

How the results depend on the processing

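Of 55 alternative values, 30 stayed close to the main one and 25 moved; a count was close within 1.5 times, and any other value within 1 SD of the 2 libraries, which is narrow for recurrence. The number of different chains, 2646, was 8176, 4755, 1334 and 686 at read minimums of 2, 3, 10 and 20. The mean of the libraries' median exons missing, 4.50, was 3.50 with the annotated parent of least loss and 3.50 weighted by reads. The mean of the median lengths lost, 865 nt, was 743 against the longest annotated transcript with reads, 598 against that parent, 775 at 10 reads and 735 weighted by reads. Mean recurrence, 81.3%, was 74.8%, 78.4%, 79.3% and 83.4% with windows of 0, 10, 20 and 100 nt, 52.9% with 5 or more reads in the other library, 77.4% with the same chain and 84.5% with any unannotated class. It was 63.5%, 85.6% and 88.5% at read minimums of 2, 10 and 20. In alternatives added after seeing the data it was 52.3% for starts on no boundary and 85.5% for exon edges. Starts near an annotated start, 22.2%, were 4.54% when only transcripts with reads counted. The 229 genes that differed between libraries were 306 (236 higher in replicate 2 and 70 lower) with only suffix models of 5 or more reads, 95 with a difference of 20 percentage points or more and, added after seeing the data, 132 with suffix models of 4 or more exons. Leaving out one library gave the value of the other: 1791 to 1922 members, 6.01% to 8.58% of reads, 4 to 5 exons, 812 to 918 nt, 80.0% to 82.7% recurrence and 20.9% to 23.6% near an annotated start; the gene test needs both. No paired analysis was possible because there is 1 group. A model with 5 reads is at the smallest number kept, and whether its absence from the other library is within counting error was not tested. The cause of these shifts was not tested beyond what each setting changes.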
